A study of Sus scrofa with 6 samples.

Results

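Genes for sugar and amino acid transporters were examined in single pig oocytes. They were chosen by name: every gene whose pig symbol placed it in solute carrier families SLC1, SLC2, SLC3, SLC5, SLC6, SLC7, SLC36, SLC38 or SLC43. By gene ID, 49 of the 19300 genes in the files met this rule. A further 34 transporter symbols of these families in the pig reference annotation had no row under their gene ID in any oocyte and were not analysed here, among them SLC2A1, SLC6A9, SLC7A5 and SLC38A4. Whether such a gene had no reads or stood under another gene ID was not determined, so family totals cover listed members only.

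Solute carriers move sugars and amino acids across membranes. SLC2 proteins let hexoses pass down their gradient, whereas SLC5 proteins couple sugars, inositol or vitamins to sodium. Amino acids enter through sodium-coupled carriers of families SLC1, SLC6 and SLC38, through proton-coupled SLC36 carriers, and through the facilitators SLC43. Most SLC7 proteins are light chains that reach the cell surface only when joined to a heavy chain, SLC3A2 or SLC3A1. Mammalian oocytes use little glucose themselves and are generally supplied with pyruvate and with some amino acids by the cumulus cells around them.

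The study compared BCB-negative with BCB-positive oocytes at the germinal vesicle stage, 3 of each, every library being 1 oocyte. BCB stands for brilliant cresyl blue. Growing oocytes tend to reduce this dye to a colourless form, whereas fully grown oocytes tend to keep its colour. The oocytes came from follicles of 3 to 6 mm, were not matured in culture, and had their cumulus cells and zona pellucida removed before lysis. The labels name no animal, so each class stood as 1 sample made of 3 cells, no test between classes was made, and an SD measures the spread between cells.

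Expected counts summed to between 7122749 and 9238987 per oocyte, and 10729 to 11751 genes reached 1 FPKM (a read measure corrected for the length of the transcript and the depth of the library). BCB-positive oocyte 3 stood apart from the other libraries over all genes. Its median distance from the other oocytes was 0.62 on the log2(FPKM + 1) scale, against 0.36 to 0.42 for the rest. Over the transporters it did not stand apart by this distance, at 0.40 within a range of 0.23 to 0.48. Its FPKM summed to 668430 over all genes, against 784781 to 811744 in the other oocytes. The transporters held 0.081% of that sum, against 0.053% to 0.061% in the others. With the further SLC1A5 gene model described below added, these shares were 0.1182% and 0.1184% to 0.1263%. Of 11 oocyte markers, the most abundant were high in every library, with the zona pellucida gene ZP3 at 5602 to 18993 FPKM by oocyte. The importin KPNA7 stood at 4072 to 10697 FPKM. Other markers of that list were low, with DAZL, NLRP5 and NOBOX at means of 2.80, 1.06 and 0.373 FPKM.

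The oocytes held a short list of abundant transporters and a long list of rare ones. Taking 1 FPKM as detected, 30 of the 49 members were detected in at least 1 oocyte, 18 in all 6, and 12 in 1 to 5 oocytes. The other 19 never reached 1 FPKM. Detected members numbered 23, 26 and 22 in BCB-negative oocytes 1, 2 and 3 and 24, 25 and 25 in the BCB-positive oocytes. Only 2 members averaged above 100 FPKM, the hexose transporter SLC2A8 and the light chain SLC7A7, and 6 averaged above 10 FPKM. The 3 most abundant members of each oocyte held 70.3% to 76.4% of the FPKM summed over the 49 members there.

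More abundant than any member was a gene model that the naming rule missed. SLC1A5, which exchanges neutral amino acids such as glutamine for one another, was split in the files between gene IDs 641348 and 100621779. The second ID is not in the reference table, but its transcript record belongs there to the gene SLC1A5. The model under ID 641348 stood at 1.15, 3.77 and 0.65 FPKM across BCB-negative oocytes 1, 2 and 3, against 0.20, 0.19 and 1.00 FPKM across BCB-positive oocytes. Under ID 100621779 the values were 563, 533 and 495 FPKM across BCB-negative oocytes, against 510.1, 544 and 246 FPKM across BCB-positive oocytes. The second model thus lay far above the first in every oocyte, on 4390 to 8515 counts against 3 to 56, and ranked 259 among all genes. It was even across 5 oocytes and lower in BCB-positive oocyte 3. The sum of both models differed by -0.37 between classes on the log2 scale (SD 0.45), and by -0.01 without BCB-positive oocyte 3. This second model is plotted beside the members but not counted among the 49. One other ID, 100513690, belongs by its transcript record to SLC38A11 and reached at most 2.90 FPKM. The SLC38A11 model counted as a member was listed in 1 oocyte, at 1.92 FPKM.

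**Figure D1:**
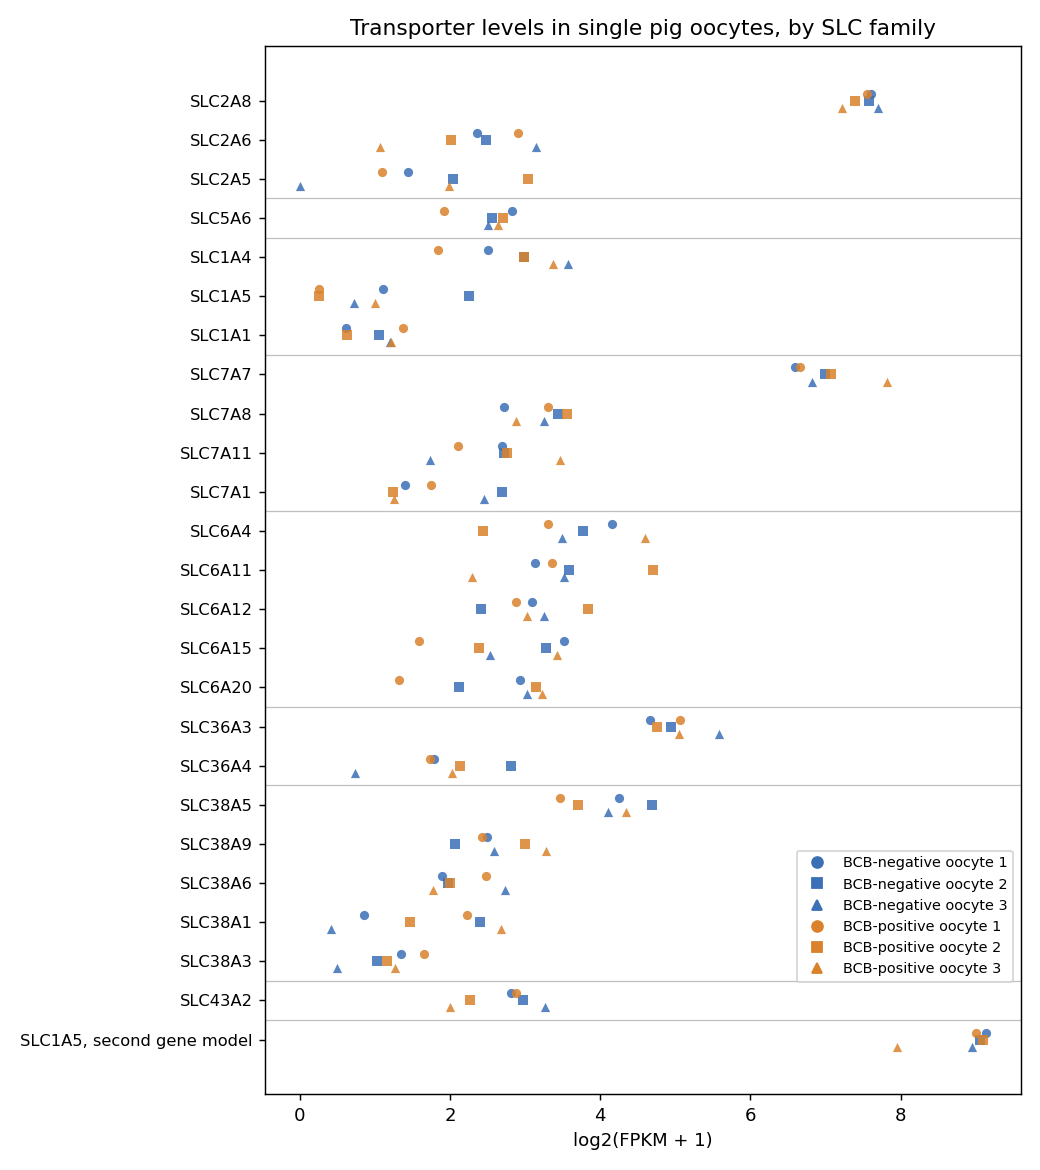
Levels of the 24 transporters with a mean of at least 1 FPKM, and of the second SLC1A5 gene model, as log2(FPKM + 1) on the horizontal axis. Each point is 1 oocyte, colour gives the BCB class and marker shape the oocyte number, and lines separate the families. SLC2A8, SLC7A7 and the second SLC1A5 model stand far to the right of the others, and blue and orange points mix in nearly every row.

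The BCB classes overlapped for nearly all transporters. Differences were computed for the 24 members with a mean of at least 1 FPKM over the 6 oocytes, as BCB-positive minus BCB-negative mean log2(FPKM + 1), a scale that understates differences of low genes. The classes overlapped for 23 of the 24, and the difference exceeded the pooled SD between oocytes of the same class for 8 of the 24, or 33.3%, against 32.5% of all genes compared. All 3 BCB-positive values lay above all 3 BCB-negative values for 0 members, where 7.44% of the 11493 genes compared did so. They lay below for 1 member, SLC2A8, where 4.03% of genes did so. With a difference of at least 1.5-fold asked for as well, 0 members were higher and 0 lower, against 5.75% and 2.66% of all genes.

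Regardless of order, 2 of the 24 members were at least 1.5-fold higher in BCB-positive oocytes on the log2(FPKM + 1) scale, against 18.9% of genes, and 5 were at least 1.5-fold lower, against 9.46%. The higher ones were SLC38A1 and SLC2A5. The lower ones were SLC7A1, SLC2A6, SLC6A15, SLC43A2 and the SLC1A5 model under ID 641348. That model reached the limit of 1 FPKM only through its BCB-negative values, with class means of 1.86 and 0.46 FPKM, so its difference is a description that the limit favours. By the ratio of class mean FPKM, 4 members were at least 1.5-fold higher, against 25.3% of genes, and 4 lower, against 11.9%. SLC38A9 and SLC38A3 joined the higher ones, and SLC6A15 left the lower ones. On the log2(FPKM + 1) scale 17 of the 24 members, or 70.8%, differed by less than 1.5-fold, against 71.7% of all genes. The median pooled SD of a member was 0.50, against 0.54 over all genes. The median difference was -0.11 over the members and 0.11 over all genes compared. Under scaling by size factors these medians were -0.19 and 0.02, and after rescaling every oocyte to one FPKM total they were -0.03 and 0.19.

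The mean log2 difference between paired oocytes, taken without sign over the 24 members, averaged 0.67 for the 6 pairs within a class and 0.66 for the 9 pairs between classes. Without BCB-positive oocyte 3 the order turned, at 0.636 within and 0.645 between classes. Over all genes compared the averages over all pairs were 0.725 within and 0.737 between classes. Without BCB-positive oocyte 3 these all-gene averages were 0.666 within and 0.662 between classes. Over the members, single pairs within a class ranged from 0.517 to 0.848.

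**Figure D2:**
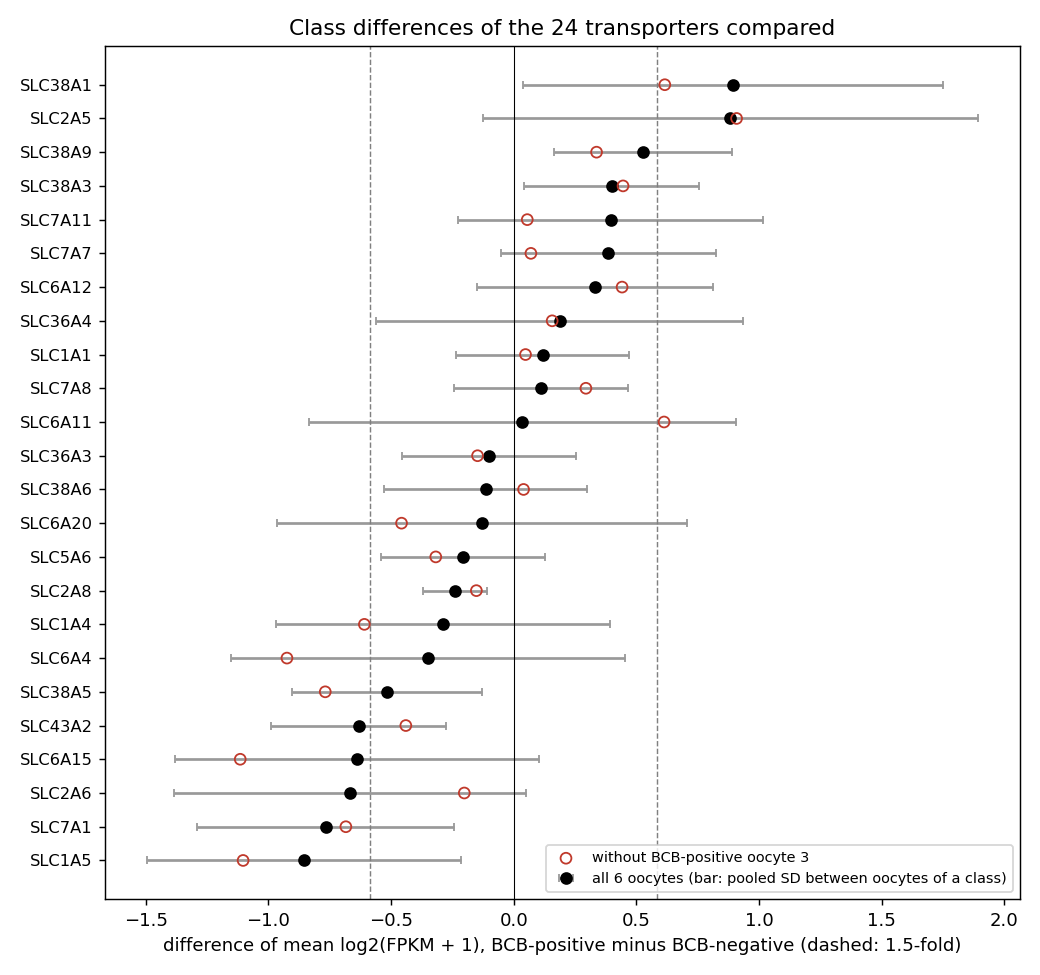
Difference of mean log2(FPKM + 1) between BCB-positive and BCB-negative oocytes for the 24 transporters compared, with the pooled within-class SD as the bar. Open circles leave out BCB-positive oocyte 3 and dashed lines mark 1.5-fold. Differences run from -0.86 for the SLC1A5 model under ID 641348 to 0.89 for SLC38A1, and 8 of the 24 exceed their SD.

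Among the 5 listed hexose transporters SLC2A8 made up nearly all of the FPKM. SLC2A8 encodes GLUT8, a glucose transporter found largely on internal membranes. It stood at 195, 189 and 207 FPKM across BCB-negative oocytes, against 187.5, 167 and 148 FPKM across BCB-positive oocytes. This was 94.0% to 97.0% of the FPKM of the 5 listed SLC2 members in each oocyte, and their sum ran from 152 to 215 FPKM. The class means were 197 ± 8.79 and 167 ± 19.97 FPKM (SD, n = 3 oocytes each), a log2 difference of -0.24 (SD 0.13).

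SLC2A8 was the sole member compared whose classes did not overlap, by a narrow gap. The lowest BCB-negative value was 189.47 FPKM and the highest BCB-positive value 187.5 FPKM. The order was lost when every oocyte was rescaled to one FPKM total, at a difference of -0.14, and the difference was -0.15 without BCB-positive oocyte 3. Its summed expected counts were 7518 (95% Poisson interval 7349 to 7690) in BCB-negative and 7188 (7023 to 7356) in BCB-positive oocytes. Such intervals cover counting error only, since reads amplified by PCR are not independent molecules.

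The remaining SLC2 genes were low. SLC2A6, encoding GLUT6, stood at 4.14, 4.57 and 7.89 FPKM across BCB-negative oocytes, against 6.50, 3.05 and 1.09 FPKM across BCB-positive oocytes. Its difference of -0.67 (SD 0.72) became -0.20 without BCB-positive oocyte 3, which held the lowest value. SLC2A5, the fructose transporter GLUT5, ran at 1.72, 3.10 and 0 FPKM and at 1.14, 7.22 and 2.98 FPKM, with the classes interleaved. No read was assigned to SLC2A5 in BCB-negative oocyte 3, where a count of 0 allows up to 0.33 FPKM at the limit of 3 counts. SLC2A3, encoding GLUT3, was listed in 2 of 6 oocytes at no more than 0.45 FPKM, and SLC2A11 reached at most 0.62 FPKM. All 3 BCB-positive SLC2A11 values, 0.62, 0.33 and 0.17 FPKM, lay above the BCB-negative ones of 0.16, 0 and 0 FPKM. No share of such low genes in this order is given here.

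Sodium-coupled carriers of the SLC5 family were represented by SLC5A6, a transporter of the vitamins biotin and pantothenate. Its values were 6.11, 4.89 and 4.67 FPKM across BCB-negative oocytes, against 2.78, 5.53 and 5.25 FPKM across BCB-positive oocytes, a difference of -0.21 (SD 0.33). SLC5A6 overlaps ATRAID, at 26.2 to 34.7 FPKM, so its level is uncertain. Of the sodium-glucose cotransporters, SLC5A1 was listed in BCB-negative oocyte 3 at 1.30 FPKM and BCB-positive oocyte 3 at 0.83 FPKM, and had no counts in the other 4. SLC5A2 reached at most 0.70 FPKM. Where SLC5A1 had no counts, the limit of 3 counts corresponds to 0.0952 to 0.102 FPKM.

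**Figure D3:**
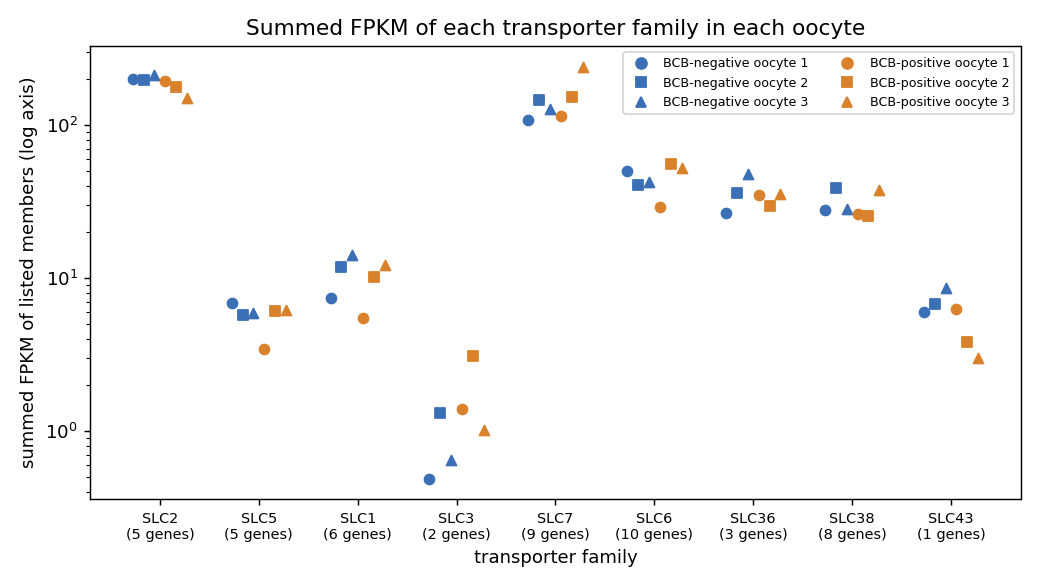
Summed FPKM of the listed members of each transporter family, on a log axis, with 1 point per oocyte. SLC2 (152 to 215 FPKM) and SLC7 (108 to 243 FPKM) lie above the other families in every oocyte, and SLC3, the heavy chains, lies lowest at 0.49 to 3.09 FPKM. The second SLC1A5 gene model is not included.

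The light chains were led by SLC7A7, which exports cationic amino acids in exchange for neutral ones and sodium. SLC7A7 stood at 95.2, 126 and 112 FPKM across BCB-negative oocytes, against 100.1, 134 and 224 FPKM across BCB-positive oocytes. BCB-positive oocyte 3 was well above the rest, and the other 5 oocytes mixed. The difference was 0.39 (SD 0.44), and 0.07 without that oocyte. In the reference annotation SLC7A7 overlaps OXA1L, a mitochondrial membrane insertase gene. OXA1L was also high in BCB-positive oocyte 3, at 217 FPKM, against 81.2 to 102 FPKM in the other oocytes. Because the protocol names no strand selection, reads from bases that both genes transcribe cannot be told apart, and the extent of such bases was not measured. The part of OXA1L in the SLC7A7 value was not tested.

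SLC7A8, which carries large neutral amino acids, stood at 5.61, 9.84 and 8.50 FPKM across BCB-negative oocytes, against 8.87, 10.79 and 6.37 FPKM across BCB-positive oocytes. SLC7A11, the cystine-glutamate exchanger that feeds glutathione synthesis, stood at 5.49, 5.61 and 2.32 FPKM and at 3.33, 5.80 and 10.01 FPKM. Both genes overlapped between classes, with differences of 0.11 (SD 0.36) and 0.40 (SD 0.62). For SLC7A11 the difference was 0.06 without BCB-positive oocyte 3. The SLC7A11 gene model listed in the files was only 789 bases long and rested on 12 to 68 counts per oocyte. SLC7A1, a carrier of arginine and lysine that needs no heavy chain, stood at 1.65, 5.45 and 4.48 FPKM across BCB-negative oocytes. In BCB-positive oocytes SLC7A1 stood at 2.37, 1.37 and 1.38 FPKM. Its difference was -0.77 (SD 0.53), and BCB-negative oocyte 1 lay among the BCB-positive values.

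The heavy chains were scarce beside these light chains. SLC3A2, the partner of SLC7A7, SLC7A8 and SLC7A11, was at 0, 1.26 and 0.29 FPKM across BCB-negative oocytes, against 0.61, 0 and 0 FPKM across BCB-positive oocytes. The 3 light chains summed to 106, 141.5 and 123 FPKM across BCB-negative oocytes, against 112, 151 and 241 FPKM across BCB-positive oocytes. SLC3A2 rested on 18, 4 and 9 counts where it was listed, and in the 3 oocytes without counts the limit of 3 counts corresponds to 0.166 to 0.201 FPKM. Whether the SLC3A2 gene model took up all of its reads was not tested.

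SLC3A1, the heavy chain of the cystine transporter, lay just under the limit of a mean of 1 FPKM, at 0.967 FPKM, as did the creatine transporter SLC6A8 at 0.955 FPKM. Just inside that limit were SLC1A1 at 1.06 FPKM and the SLC1A5 model under ID 641348 at 1.16 FPKM. SLC3A1 stood at 0.49, 0.05 and 0.36 FPKM across BCB-negative oocytes, against 0.79, 3.09 and 1.02 FPKM across BCB-positive oocytes. All 3 BCB-positive values thus lay above all BCB-negative ones, on 26 and 188 summed counts, a difference of 0.93 (SD 0.49). For genes under the limit, no share of all genes in this order is given here. The light chain that pairs with SLC3A1, SLC7A9, was listed in 2 oocytes at no more than 0.68 FPKM. SLC7A9 overlaps TDRD12, at 14.55 to 31.95 FPKM, so its level is uncertain. SLC3A1 overlaps PREPL, a peptidase-like gene. PREPL stood at 19.6, 24.8 and 14.9 FPKM across BCB-negative oocytes, against 30.9, 31.0 and 27.5 FPKM across BCB-positive oocytes, in the same order. Its part in the SLC3A1 values was not tested.

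**Figure D4:**
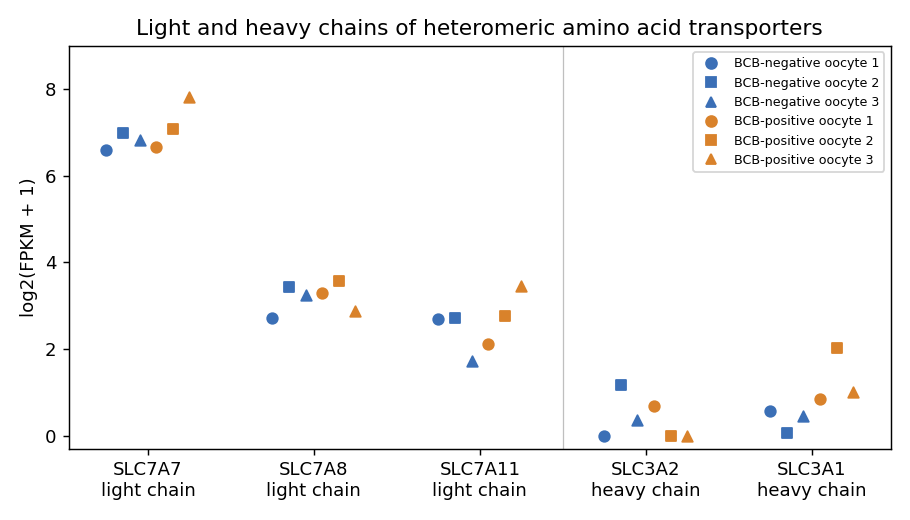
Light chains SLC7A7, SLC7A8 and SLC7A11 and heavy chains SLC3A2 and SLC3A1, as log2(FPKM + 1) on the vertical axis, with 1 point per oocyte. Every SLC7A7 point lies above 6 on this axis and every heavy chain point below 2.1, and SLC3A2 is at 0 in 3 oocytes.

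In the SLC1 family SLC1A4, which carries alanine, serine and cysteine, stood at 4.66, 6.94 and 10.89 FPKM across BCB-negative oocytes. In BCB-positive oocytes SLC1A4 stood at 2.57, 6.93 and 9.37 FPKM. The classes overlapped, although BCB-positive oocyte 1 lay below every BCB-negative value, and the difference was -0.29 (SD 0.68). The glutamate transporter SLC1A1 was low throughout, at 0.53, 1.08 and 1.30 FPKM and at 1.60, 0.55 and 1.32 FPKM. SLC1A2, SLC1A6 and SLC1A7, also glutamate transporters, averaged below 1 FPKM.

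Family SLC6 held 10 members, of which 5 were compared, all detected in every oocyte. SLC6A4, the serotonin transporter, stood at 16.8, 12.6 and 10.21 FPKM across BCB-negative oocytes, against 8.92, 4.45 and 23.3 FPKM across BCB-positive oocytes. BCB-positive oocytes 1 and 2 were thus the lowest and oocyte 3 the highest. Its difference was -0.35 (SD 0.80), and -0.92 without BCB-positive oocyte 3. SLC6A11, a GABA transporter, ran at 7.75, 11.04 and 10.49 FPKM and at 9.23, 24.97 and 3.90 FPKM, with both extremes in the BCB-positive class. Its difference of 0.03 (SD 0.87) became 0.61 without BCB-positive oocyte 3.

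SLC6A12, which carries betaine and GABA, was at 7.55, 4.31 and 8.49 FPKM across BCB-negative oocytes, against 6.36, 13.3 and 7.16 FPKM across BCB-positive oocytes. SLC6A15, a carrier of proline and branched-chain amino acids, was at 10.4, 8.69 and 4.78 FPKM and at 2.02, 4.24 and 9.72 FPKM. Its difference of -0.64 (SD 0.74) became -1.11 without BCB-positive oocyte 3. SLC6A20, a carrier of proline and related imino acids, was at 6.66, 3.37 and 7.15 FPKM and at 1.51, 7.89 and 8.35 FPKM. Of these 5 genes, 3 (SLC6A4, SLC6A15 and SLC6A20) were lower in BCB-positive oocyte 1 than in each BCB-negative oocyte. The share of all genes in this order is not given here, so nothing is read from this count. Of the 4 members with the largest SD between oocytes of a class, SLC6A11 and SLC6A20 belong to this family, with SDs of 0.87 and 0.84. The others were SLC2A5 (SD 1.01) and SLC38A1 (SD 0.86). SLC6A5, a glycine transporter, had 2 counts in a single oocyte.

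Among proton-coupled carriers SLC36A3 was the most abundant, and only SLC2A8 and SLC7A7 exceeded it among the members. It stood at 24.3, 29.7 and 46.8 FPKM across BCB-negative oocytes, against 32.4, 26.1 and 32.2 FPKM across BCB-positive oocytes, a difference of -0.10 (SD 0.35). SLC36A3 overlaps SLC36A2, which had no row under its gene ID, and the part of SLC36A2 in the SLC36A3 value was not tested. SLC36A4, a carrier of proline and tryptophan, stood at 2.46, 6.03 and 0.67 FPKM and at 2.33, 3.41 and 3.08 FPKM. SLC36A4 overlaps DEUP1, a centriole gene at 28.8 to 128 FPKM. SLC36A1, found on lysosomes, reached at most 0.59 FPKM.

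Of the sodium-coupled neutral carriers, SLC38A5 was the most abundant. It carries glutamine, asparagine, histidine and glycine, and stood at 18.1, 24.9 and 16.3 FPKM across BCB-negative oocytes. In BCB-positive oocytes SLC38A5 stood at 10.05, 12.01 and 19.25 FPKM. BCB-positive oocytes 1 and 2 lay below every BCB-negative oocyte and oocyte 3 did not. The difference was -0.52 (SD 0.39), and -0.77 once BCB-positive oocyte 3 was left out.

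SLC38A9, a lysosomal protein that reports arginine to the growth kinase mTORC1, stood at 4.62, 3.18 and 5 FPKM across BCB-negative oocytes. In BCB-positive oocytes it stood at 4.40, 7.01 and 8.75 FPKM. The difference was 0.53 (SD 0.36) and BCB-positive oocyte 1 lay within the BCB-negative values. SLC38A9 overlaps PLPP1, a lipid phosphatase gene at 237 to 360 FPKM, so its own level is uncertain. SLC38A6 was at 2.72, 2.94 and 5.63 FPKM and at 4.60, 2.99 and 2.43 FPKM, with the classes interleaved.

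SLC38A1, a glutamine carrier, had the largest positive difference of the members compared, 0.89 (SD 0.86). Its values were 0.81, 4.30 and 0.34 FPKM across BCB-negative oocytes, against 3.67, 1.76 and 5.39 FPKM across BCB-positive oocytes. BCB-negative oocyte 2 lay above 2 of the 3 BCB-positive oocytes, so the classes overlapped. SLC38A3, a carrier of glutamine and alanine known from cumulus cells, was at 1.55, 1.04 and 0.41 FPKM and at 2.14, 1.23 and 1.40 FPKM. SLC38A2, a carrier of small neutral amino acids, had counts in BCB-positive oocytes 1 and 3 and in no other, at 0.98 and 0.31 FPKM. SLC38A10 was listed in all 6 oocytes at 0.26 to 0.80 FPKM, and SLC7A3, a cationic amino acid transporter, at 0.11 to 0.69 FPKM. The remaining low members were SLC5A8, SLC5A10, SLC7A14, SLC7A2, SLC6A18, SLC7A4, SLC6A7 and SLC6A2, each listed in 1 to 3 oocytes. The highest of these was SLC5A8, a monocarboxylate carrier, at 0.84 FPKM. SLC5A8 overlaps ANO4, at 4 to 13.62 FPKM, so its level is uncertain. SLC7A2 was listed in the BCB-positive oocytes only, at 0.17, 0.04 and 0.03 FPKM. SLC43A2, a facilitator of branched-chain and aromatic amino acids, was at 6.00, 6.84 and 8.60 FPKM across BCB-negative oocytes, against 6.34, 3.83 and 3.00 FPKM across BCB-positive oocytes. BCB-positive oocyte 1 exceeded the lowest BCB-negative value, and the difference was -0.63 (SD 0.36).

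With any 1 oocyte left out, fewer values have to be in order, so more genes of any kind meet the rule of order and 1.5-fold. Without BCB-positive oocyte 3, SLC38A5, SLC6A4 and SLC6A15 were lower and 0 members higher, against 4.40% and 7.19% of all genes. The SLC1A5 model under ID 641348 also met the rule there and without BCB-negative oocyte 3, but nothing is read from it because of how it reached the limit of 1 FPKM. It had 82 counts summed over the 3 BCB-negative oocytes, against 24 over the other class. Without BCB-positive oocyte 1, SLC38A9, SLC7A7 and SLC7A11 were higher, against 13.7% of genes, and SLC2A6, SLC43A2 and SLC7A1 lower, against 6.92%. Without BCB-negative oocyte 1, SLC38A3 was higher (11.1% of genes) and SLC43A2 and SLC7A1 were lower (5.53%). Without BCB-negative oocyte 2, SLC38A1 was higher (8.74% of genes) and 0 members lower (5.01%). Without BCB-negative oocyte 3, 0 were higher (8.82%) and no other member was lower (4.97%). Without BCB-positive oocyte 2, 0 were higher (10.3%) and 0 lower (5.46%).

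Transcript shares were computed for the 4 members with 2 or more transcripts in the files and 5 FPKM or more in each oocyte. SLC2A8 and SLC7A7 each came from a dominant transcript, of 1770 bases at 95.3% to 99.3% and of 2135 bases at 93.3% to 99.7%. For SLC38A5 the 1801-base transcript took 100%, 47.5% and 0% of FPKM across BCB-negative oocytes, against 100%, 100% and 0% in BCB-positive oocytes, with the 1790-base transcript taking the rest. For SLC7A8 the 3554-base transcript took 100%, 100% and 0% and then 70.9%, 27.8% and 100%. The estimated shares of these 2 genes varied from oocyte to oocyte within a class. They rest on 137 to 330 counts of SLC38A5 and 149 to 300 of SLC7A8 per oocyte. These counts are split by estimate between transcripts of similar length. Whether the transcripts themselves changed was not tested. No transcript of the 4 genes separated the classes by 20 percentage points.

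Genes that sense or use the carried substrates were described in the same way, by count and median. Of 18 genes of lysosomal amino acid sensing compared, 0 met the rule of order and 1.5-fold. Of all genes compared, 5.75% met it as higher and 2.66% as lower. By order alone 3 of the 18, RRAGA, SESN1 and SESN2, were higher in BCB-positive oocytes, against 7.44% of genes. The median difference of the 18 was 0.20, against 0.11 over all genes. RRAGA, a GTPase that brings mTORC1 to the lysosome, averaged 378 FPKM across BCB-negative oocytes, against 490.3 FPKM across BCB-positive oocytes. Of 6 genes of the amino acid response, 1 was higher, where 5.75% of all genes were. It was CEBPG, a transcription factor that partners ATF4. CEBPG stood at 22.27, 14.2 and 12.8 FPKM across BCB-negative oocytes, against 27.1, 27.7 and 22.30 FPKM across BCB-positive oocytes, a narrow order with a difference of 0.65 (SD 0.31). The median of this list was 0.39, and 0.12 without BCB-positive oocyte 3. By order alone CHAC1 was lower in BCB-positive oocytes, at a difference of -0.47, where 4.03% of genes were.

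Of 10 enzymes of glutamine, glutamate and glycine metabolism, 0 met the rule, against 5.75% of all genes higher and 2.66% lower. Their median difference was 0.51, against 0.11 over all genes compared. All 11 enzymes with a row had a higher class mean FPKM in BCB-positive oocytes. By mean log2(FPKM + 1), a different measure, 6668 of the 11493 genes compared were higher. The 11 summed to 70.9 to 85.9 FPKM across BCB-negative oocytes, against 104.7 to 154.2 FPKM across BCB-positive oocytes. These sums were not tested. Without BCB-positive oocyte 3 the median of the 10 was 0.50. There 3 enzymes were higher, SHMT2, GLUL and GPT, named after their values were seen, where 7.19% of all genes were. GLUL reached the limit of 1 FPKM only through the BCB-positive oocytes, at class means of 0.60 and 3.17 FPKM. GOT2, the mitochondrial aspartate aminotransferase, stood at 26.3, 24.0 and 27.9 FPKM across BCB-negative oocytes, against 24.3, 22.9 and 63.4 FPKM across BCB-positive oocytes. Its difference of 0.33 (SD 0.57) became -0.14 without BCB-positive oocyte 3. Among 6 genes of hexose entry, 0 met the rule and the median was -0.26. By order alone GPI was lower in BCB-positive oocytes, at a difference of -0.43, where 4.03% of genes were. Without BCB-positive oocyte 3, 1 met the rule as lower, SORD, where 4.40% of all genes did. SORD was also named after its value was seen. AKR1B1, which reduces glucose to sorbitol, averaged 93.2 and 95.7 FPKM. The hexokinases HK1, HK2, HK3 and HKDC1 all averaged below 1 FPKM. Among 6 other amino acid transporters, 1 was lower, the lysosomal cystine exporter CTNS, where 2.66% of all genes were. CTNS stood at 6.84, 9.28 and 6.49 FPKM across BCB-negative oocytes, against 5.33, 1.42 and 3.48 FPKM across BCB-positive oocytes, a difference of -1.05 (SD 0.53).

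Markers of other cell types varied widely in level. Of 16 cumulus and granulosa markers, 11 had a row and summed to 20.7 to 31.2 FPKM across BCB-negative oocytes, against 28.6 to 38.3 FPKM across BCB-positive oocytes. Class mean FPKM was higher in BCB-positive oocytes for 10 of the 11. By mean log2(FPKM + 1), so were 6668 of the 11493 genes compared. That share uses another measure, and only genes averaging 1 FPKM or more, so it is not a like background. Only 2 of the 11 markers averaged 1 FPKM or more, and PTX3, PTGS2, TNFAIP6 and CYP11A1 reached at most 0.35 FPKM. Most of the sum was INHBA, at a mean of 25.9 FPKM, a level that only SLC2A8, SLC7A7 and SLC36A3 exceeded among the members. HSD17B1, the next, averaged 0.54 FPKM across BCB-negative oocytes, against 1.89 FPKM across BCB-positive oocytes, with no overlap. STAR likewise did not overlap, at 0.05, 0.37 and 0.16 FPKM and at 1.56, 1.79 and 0.40 FPKM. FSHR, LHCGR, FOXL2, HAS2 and NR5A2 had no row. The part of cumulus RNA in the transporter values was not tested. Theca and stroma markers summed to 1.00 to 3.78 FPKM by oocyte, led by DCN and INSL3, and leukocyte markers to 2.52 to 10.29 FPKM, led by CD3E and CD79A. CD3E averaged 0.73 FPKM across BCB-negative oocytes, against 3.84 FPKM across BCB-positive oocytes, with no overlap. CD3E and HSD17B1 reached the limit of a mean of 1 FPKM only through the BCB-positive oocytes. Of all genes compared, 7.44% had all 3 BCB-positive values above all 3 BCB-negative ones. Endothelial markers summed to 6.94 to 23.0 FPKM, nearly all TEK, at up to 20.4 FPKM, and PECAM1, and the erythroid marker HBM to 0 to 8.16 FPKM.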

How the data were processed

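Single pig oocytes, 3 per BCB class, were lysed whole. Per the labels' protocols, a primer with 24 nt of poly(dT) started reverse transcription, PCR amplified the cDNA, and all libraries were run together. BWA, Cufflinks, RSEM and Sscrofa10.2 are named, per the submitters' processing notes, with no role or version stated there. Per the file headers, the deposited files give each gene and transcript a length, an expected count (an estimate that splits reads among transcripts) and an FPKM, which the authors scaled to transcript length and library depth. No UMIs are named.

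A gene missing from a file was set to 0. Symbols came by gene ID from RefSeq genes of Sscrofa11.1, used for names and overlaps only, and 13936 of 19300 IDs matched. Genes averaging 1 FPKM or more were compared on log2(FPKM + 1), with a pooled within-class SD, in Python 3.11.15. No test was made, since each class is 1 sample of 3 cells. Intervals are exact Poisson on rounded counts.

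Named were up to 4 abundant members of each family, members whose classes do not overlap, the 4 most variable, those beside the 1 FPKM limit, and 1 to 3 genes per other list. Other members and list genes given with values were chosen after their values were seen. Members and lists were chosen with earlier results of these data known. Accession matching, and lists without BCB-positive oocyte 3, were added after seeing the data. Replicate numbers only name oocytes.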

Additional observations from a re-analysis of the deposited data

How the results depend on the processing

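No paired analysis was possible because the results come from no test, and the labels do not say whether oocytes with the same number share an animal. With all 6 oocytes, 0 members were higher and 0 lower under a pseudocount of 0.1 FPKM, size factors, a common sum, CPM, a filter at 5 FPKM, and with the second SLC1A5 model added. With no filter on low values 1 was higher, SLC3A1. The share of all genes called without that filter is not given here, so nothing is read from this call. Of the 25 members not compared, 3 were ordered by class, SLC3A1, SLC2A11 and SLC7A2. Leaving out 1 oocyte gave 0 to 3 higher and 0 to 4 lower members, the SLC1A5 model under ID 641348 included, with fewer values to order. The median difference ran from -0.19 to 0.063 over these fits with 1 oocyte left out, at 0.052 without BCB-negative oocyte 3 and 0.063 without BCB-positive oocyte 1, so its sign depends on single oocytes. Members detected in at least 1 oocyte numbered 46 at 0.1 FPKM and 49 at any value above 0, and those detected in every oocyte 28 at any value above 0. Of 25 single differences, up to 4 changed sign with 1 oocyte left out and 1 under size factors. With a pseudocount of 0.1 FPKM the SLC1A5 model under ID 641348 differed by -1.75. The cause was not tested. The 25 members not compared had at most 118 counts in an oocyte, which limits what can be seen of them in 1 cell.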
